A study of Mus musculus with 9 samples.

Results

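The genes described here are 30 protein-coding mouse genes whose symbols begin with any of 12 prefixes used for collagens, laminins, integrins, matrix metalloproteinases and their TIMP inhibitors, ADAM-type proteases, serpins, lysyl oxidases, fibulins, fibrillins and cathepsins. *Col6a3*, *Lamc3*, *Itgb2* and *Serpina3f* were left out of the set, and the 30 genes were found among 8329 genes in the expression table, of which 3477 were protein-coding. The set held 14 serpins, 3 ADAMTS or ADAMTS-like genes, 3 ADAM genes, 3 matrix metalloproteinases, 3 cathepsins, 2 genes with an integrin prefix, 1 laminin chain and 1 gene with the lysyl oxidase prefix. The numbers of collagens, TIMPs, fibulins and fibrillins in it were all 0, so what follows is about serpins and matrix proteases; other genes of the named families were not analysed here. The gene with the lysyl oxidase prefix, *Loxhd1*, encodes a hair cell protein and not a lysyl oxidase, and *Itgb1bp1* encodes a protein that binds an integrin tail and is not itself an integrin.

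RNA sequencing compared 3 groups of sorted CD51+CD200+ cells from WT C57BL/6J mice, with 3 libraries in each group. BM-MSCs, the mesenchymal stem cells of the bone marrow, and P-SSCs, the skeletal stem cells of the periosteum that covers the bone, were taken fresh at day 0. Graft P-SSCs were taken from the periosteum of a donor femur 3 days after it had been placed under the skin of a recipient that had received no conditioning. The comparisons ask how the stem cells of the periosteum differ from those of the marrow at rest, and how they change early after the bone is transplanted. The labels gave no age, and the sort marks of the graft cells named in the labels did not include one that separates donor from host cells. Replicate 2 of BM-MSCs and replicate 2 of P-SSCs joined the RNA of more than 1 preparation, and each library held different mice. The p-values therefore measure the spread between these libraries.

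Serpins are a family of proteins that mostly trap a serine protease by offering it a bait loop, so that both are inactivated together. Several are secreted into plasma and matrix, where they hold back thrombin, the plasminogen activators and complement, while the clade B serpins stay inside the cell and protect it from leaked granule proteases. ADAMTS enzymes are secreted metalloproteases that cut proteoglycans such as aggrecan and versican, and bone and cartilage remodelling depends on the balance between such enzymes and their inhibitors.

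Levels are in FPKM as deposited, a unit in which a gene's fragments are divided by its length and by the depth of its library, so that levels of different genes can be compared. Library totals recovered from the FPKM steps ranged from 16890241 to 21315438 fragments. Across genes, the libraries of a group correlated with r between 0.945 and 0.956 in BM-MSCs, between 0.858 and 0.960 in P-SSCs and between 0.982 and 0.992 in graft P-SSCs. P-SSC replicate 3 stood apart within its group, and results that rest on it are given with and without it. The genes for the sort marks were not analysed here, and of 12 stromal genes listed as a check only *Postn*, which encodes periostin, was in the table. It had 105 ± 17.5 FPKM (SD, n = 3) in BM-MSCs, 439 ± 44.1 in P-SSCs and 830.3 ± 48.4 in graft P-SSCs. Of 17 blood cell genes, 5 were in the table, and their summed level was 1159 to 2810 FPKM in BM-MSCs, 16.6 to 79.4 FPKM in P-SSCs and 35.3 to 91.8 FPKM in graft P-SSCs. Among them *Ptprc*, which encodes the leukocyte marker CD45, was listed at 0 in the 3 P-SSC libraries and did not exceed 1.35 FPKM in any library. *Hba-a2* and *Lyz2* carried the sum in BM-MSCs, and *Mpo* added to it in BM-MSC replicate 1 alone. *Csf1r*, a macrophage receptor gene, was instead highest in graft P-SSCs, at 5.94 ± 0.367 FPKM (SD, n = 3) against 0.497 ± 0.303 in P-SSCs and 0.968 ± 1.49 in BM-MSCs. The part of these transcripts in the differences between the groups was not tested, and in RNA from sorted pools fewer cells of a type and less RNA per cell cannot be told apart. No gene of the lists written for endothelium, osteoclasts, osteoblasts and cartilage, or muscle was analysed here.

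Of the 30 genes, 12 passed the filter on low values, which asked for at least 1 FPKM in at least 3 of the 9 libraries. They were 7 serpins, the 3 ADAMTS-type genes, *Mmp17* and *Itgb1bp1*. The other 18 comprised 9 genes listed at 0 in every library and 9 with reads in at least 1 library. The genes at 0 were *Adam26a* and *Adam39*, which belong to testis ADAMs, *Ctsj* and *Ctsr*, which are placental cathepsins, *Mmp7*, which encodes matrilysin, *Serpina5*, which encodes the protein C inhibitor, and the granzyme inhibitor relatives *Serpinb9c*, *Serpinb9e* and *Serpinb9g*. A count of 0 in a library allows up to 3 fragments, and these floors cover counting error only.

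**Figure D1:**
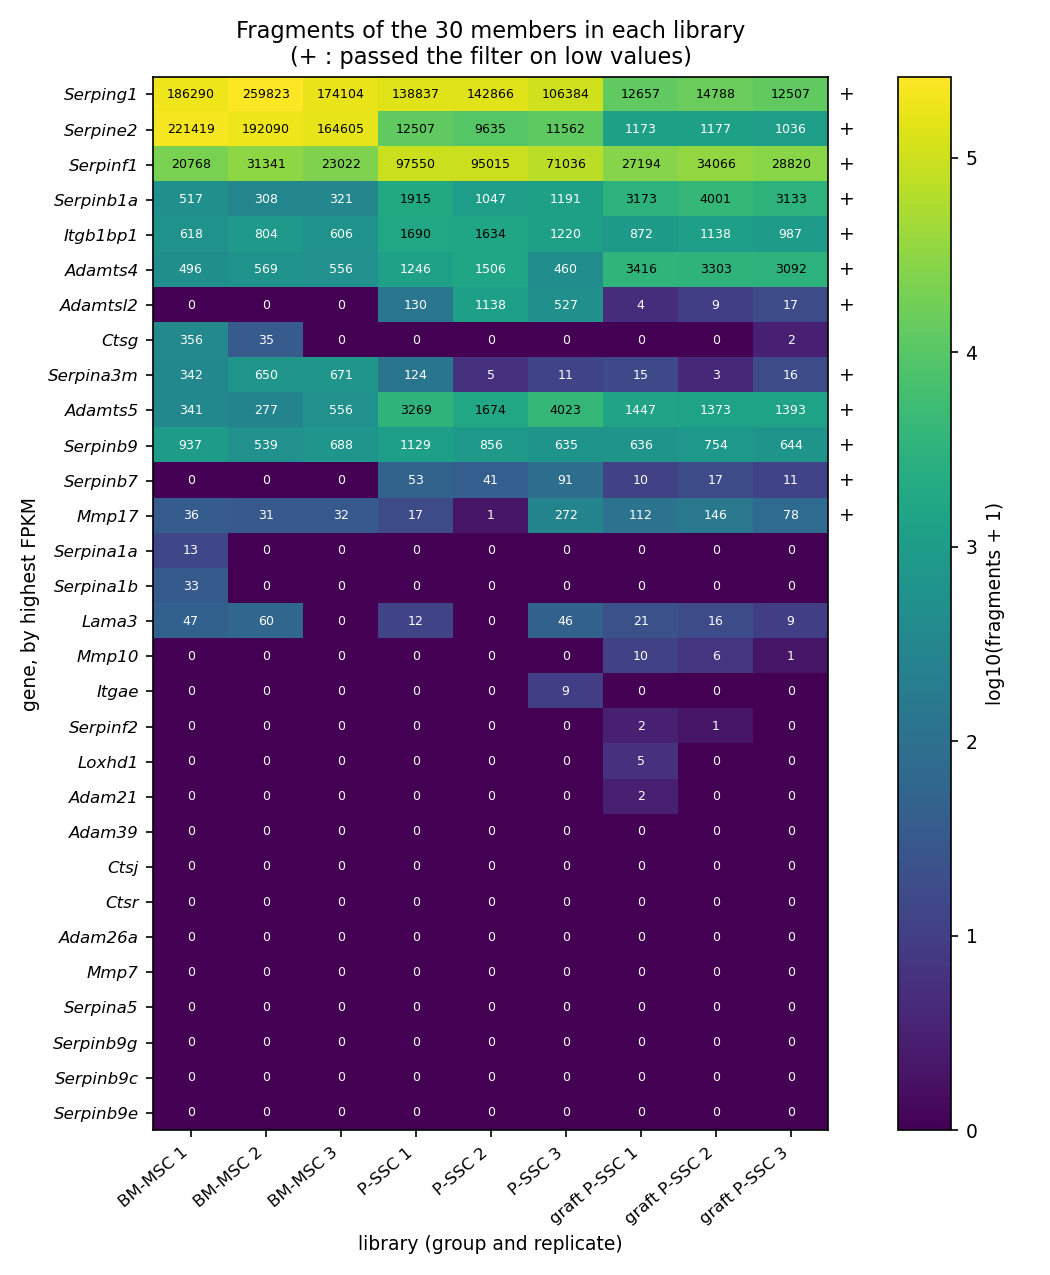
Fragments of each of the 30 genes (rows, ordered by highest FPKM) in each of the 9 libraries (columns), coloured on a scale of log10(fragments + 1), with the fragment number printed in each cell and a plus sign at genes that passed the filter. The top 3 rows, *Serping1*, *Serpine2* and *Serpinf1*, hold most fragments in every library, *Serpine2* drops from 164605 or more in BM-MSCs to 1177 or fewer in graft P-SSCs, and the 9 lowest rows are at 0 throughout.

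Among the genes that did not pass, *Ctsg* reached the highest level. It encodes cathepsin G, a serine protease of neutrophil granules, and it had 27.2, 2.40 and 0 FPKM in the 3 BM-MSC libraries, from 356, 35 and 0 fragments. In P-SSCs it was at 0 in every library, and 1 graft P-SSC library held 2 fragments. The neutrophil granule gene *Mpo*, a blood marker, was at 292.2 FPKM in BM-MSC replicate 1 and at 0 in BM-MSC replicates 2 and 3, so the BM-MSC library that was highest for *Mpo* was also the highest for *Ctsg*, and what this has to do with other granule transcripts in that library was not tested. *Serpina1a* and *Serpina1b*, which encode alpha 1-antitrypsin and are near-identical copies whose reads may be split between them, had 13 and 33 fragments in that same library (1.97 and 1.49 FPKM) and 0 in the other 8. The remaining low genes stayed under 1 FPKM in every library. *Lama3*, a laminin alpha chain of epithelial basement membranes, was the highest of them at 0.396 FPKM and had 211 fragments over all libraries. *Mmp10*, which encodes stromelysin 2, had 10, 6 and 1 fragments in the 3 graft P-SSC libraries and 0 in the 6 others. At this depth neither *Itgae*, the CD103 integrin chain with 9 fragments in P-SSC replicate 3, nor *Serpinf2*, the alpha 2-antiplasmin gene with 2 and 1 fragments in graft P-SSCs, could be compared between groups.

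Between P-SSCs and BM-MSCs, 6 of the 12 genes tested were higher in P-SSCs and 3 were lower, as called by limma at a Benjamini-Hochberg adjusted p under 0.05. Of all 1948 genes tested, 9.80% were called higher and 14.4% lower in this comparison. *Serpine2*, *Serping1* and *Serpina3m* were lower, and *Serpinf1*, *Serpinb1a*, *Serpinb7*, *Adamts5*, *Adamtsl2* and *Itgb1bp1* were higher. *Adamtsl2* and *Serpinb7* passed the filter only through P-SSC libraries, and *Serpina3m* reached 1 FPKM outside BM-MSCs in P-SSC replicate 1 only, so these 3 genes had to differ from the group where each was high and their calls follow from the filter. The median log2 difference, beside -0.06 for all genes tested, was 0.88 for the 8 genes that reached 1 FPKM in at least 2 libraries outside their highest group, which leaves out these 3 and *Mmp17*. With 3 libraries in each group the smallest p that an exact permutation test (two-sided) allows for any 1 gene is 0.10, so the calls rest on the fit over all genes.

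Between graft P-SSCs and P-SSCs, 2 of the 12 were higher in the graft, *Serpinb1a* and *Adamts4*, and 6 were lower, *Serpine2*, *Serping1*, *Serpinf1*, *Serpinb7*, *Adamtsl2* and *Itgb1bp1*. The lower calls of *Adamtsl2* and *Serpinb7* again follow from the filter, which leaves 4 of the 6. Of all genes tested 22.6% were called higher and 11.5% lower by limma. The median log2 difference was -0.75 for the same 8 genes and 0.26 for all genes. Scaling by median-of-ratios factors brought the latter to 0.019 and changed the split of calls from 441 higher and 224 lower to 312 and 302, and quantile normalization gave 312 and 355. Between graft P-SSCs and BM-MSCs, *Serpinb1a*, *Adamts4* and *Adamts5* were higher in the graft and *Serpine2*, *Serping1* and *Serpina3m* were lower, the last of them through the filter. In that comparison 25.7% of all genes were called higher and 16.2% lower, and the median log2 difference was 0.34 for the 8 genes and 0.28 for all genes. The corresponding calls over all genes were 501 higher and 315 lower, against 388 and 364 with median-of-ratios scaling and 387 and 405 with quantile normalization. The number of genes higher came to 319 without graft P-SSC replicate 1 and to 321 without graft P-SSC replicate 2, and the number lower in graft P-SSCs than in P-SSCs to 149 without graft P-SSC replicate 1. Without P-SSC replicate 3, 637 genes were called higher and 255 lower in graft P-SSCs than in P-SSCs. Against BM-MSCs, 667 were then higher and 371 lower in graft P-SSCs. In P-SSCs against BM-MSCs, 210 were higher and 383 lower without that library, in place of 191 and 281. Each pair of these 3 comparisons shares a group of libraries, so their calls are not independent of each other.

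**Figure D2:**
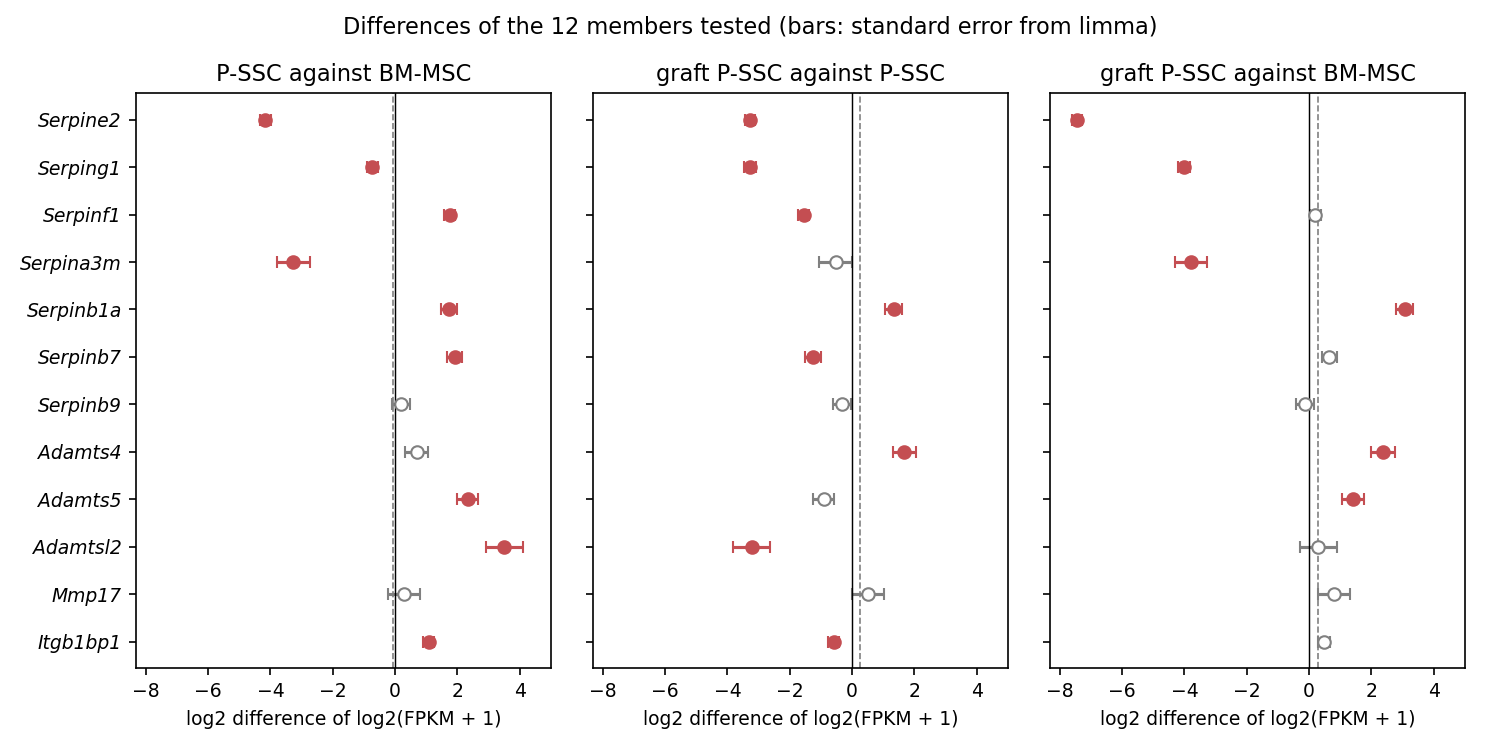
Differences of the 12 genes tested in the 3 comparisons, on the scale of log2(FPKM + 1), where points are limma estimates, bars are standard errors, filled points were called at an adjusted p under 0.05, the solid line is 0 and the dashed line is the median of all genes tested. *Serpine2* lies far to the left in every panel, from -3.28 to -7.44, and *Serpinb1a* lies to the right in every panel, from 1.33 to 3.07.

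Secreted serpins carried nearly all of the signal of the set. *Serpine2*, *Serping1* and *Serpinf1* together made up 99.2 to 99.4% of the summed FPKM of the 30 genes in BM-MSC libraries, 97.8 to 98.2% in P-SSC libraries and 88.4 to 88.9% in graft P-SSC libraries. As a share of all fragments of a library they took 2.36 ± 0.329% (SD, n = 3) in BM-MSCs, 1.22 ± 0.203% in P-SSCs and 0.234 ± 0.002% in graft P-SSCs. This share separated the 3 groups with no overlap.

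*Serpine2* encodes protease nexin 1, a secreted inhibitor of thrombin and of the urokinase plasminogen activator. It was at 7448, 5799 and 5126 FPKM in BM-MSCs, at 359.7, 308 and 346 FPKM in P-SSCs and at 37.7, 31.4 and 32.8 FPKM in graft P-SSCs. Each step down was far larger than the spread within a group, and no libraries of different groups overlapped. The mean was 18.1-fold lower in P-SSCs than in BM-MSCs, with a log2 difference of -4.16 (SE 0.16, adjusted p = 2.22e-07 from limma). Graft P-SSCs had a mean 9.95-fold lower again than P-SSCs, with a log2 difference of -3.28 (SE 0.16, adjusted p = 2.07e-06 from limma). Set against the median of all genes in that comparison, the fall was -3.54. Over both steps the mean went from 6124 ± 1195 FPKM (SD, n = 3) to 33.9 ± 3.31 FPKM, 180.4-fold lower.

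*Serping1* encodes the C1 inhibitor, which restrains the first complement proteases and plasma kallikrein. Its levels were 7633, 9554 and 6603 FPKM in BM-MSCs, 4863, 5567 and 3874 FPKM in P-SSCs and 495.3, 480.1 and 482 FPKM in graft P-SSCs. The groups did not overlap, but the gap between the lowest BM-MSC and the highest P-SSC library was smaller than the SD of BM-MSCs (1498 FPKM), whereas graft libraries were far below both. The P-SSC mean was 1.66-fold lower than the BM-MSC mean, with a log2 difference of -0.73 (SE 0.18, adjusted p = 0.0151 from limma). This call was lost in 4 of the 18 alternative settings, median-of-ratios scaling, quantile normalization, a fit of only the groups compared and leaving out BM-MSC replicate 2, with adjusted p-values from 0.0531 to 0.195 from limma. The difference was -0.17 with quantile normalization and between -0.59 and -0.73 in the other 3. From P-SSCs to graft P-SSCs the mean fell 9.82-fold, a log2 difference of -3.28 (SE 0.18, adjusted p = 2.63e-06 from limma).

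*Serpinf1* encodes pigment epithelium-derived factor, a secreted serpin without inhibitory activity that binds collagen and acts against blood vessel growth. It had 1485, 2011 and 1524 FPKM in BM-MSCs, 5963, 6461 and 4514 FPKM in P-SSCs, and 1857, 1930 and 1938 FPKM in graft P-SSCs. P-SSC libraries were the highest without overlap, and graft P-SSC libraries fell inside the range of BM-MSC libraries. The P-SSC mean was 3.37-fold higher than that of BM-MSCs, with a log2 difference of 1.75 (SE 0.18, adjusted p = 6.92e-05 from limma). After transplantation the mean was 2.96-fold lower, with a log2 difference of -1.55 (SE 0.18, adjusted p = 0.000199 from limma). Between graft P-SSCs and BM-MSCs the log2 difference was 0.20 (SE 0.18, adjusted p = 0.373 from limma), and this sign turned with median-of-ratios scaling (-0.044) while quantile normalization gave a called difference of 0.78.

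Since these 3 genes differed unequally, the makeup of the secreted serpins differed too. *Serpine2* held 39.0 ± 5.79% (SD, n = 3) of their summed FPKM in BM-MSCs, 3.22 ± 0.730% in P-SSCs and 1.40 ± 0.156% in graft P-SSCs. *Serpinf1* held 10.7 ± 1.49%, 52.5 ± 0.814% and 78.6 ± 0.770% in the same groups. The share of *Serping1* was 50.3 ± 4.49% in BM-MSCs, 44.3 ± 0.826% in P-SSCs and 20.0 ± 0.616% in graft P-SSCs. The ratio of *Serpinf1* to *Serpine2*, in which a scaling of the library cancels, was 0.199 to 0.347 in BM-MSC libraries, 13.1 to 21.0 in P-SSC libraries and 49.3 to 61.5 in graft P-SSC libraries. No range touched another.

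**Figure D3:**
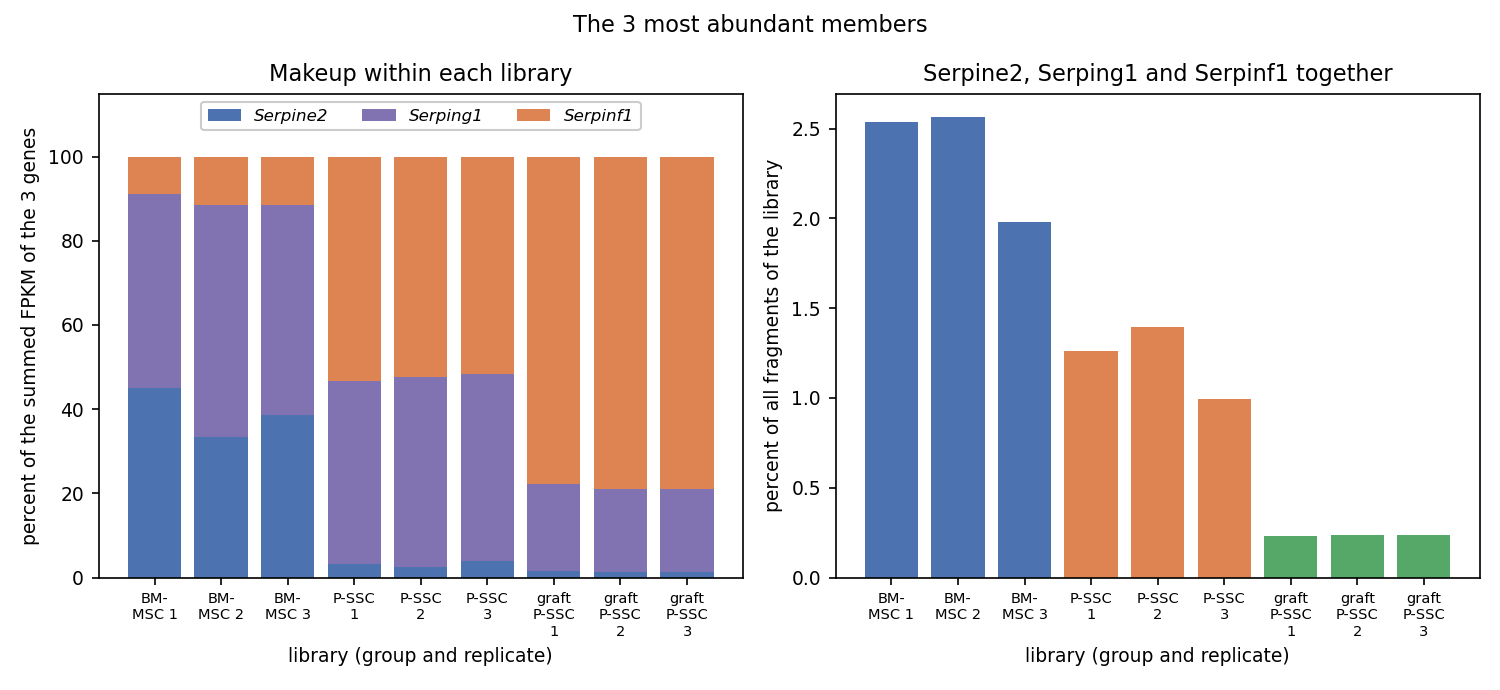
Left, percent of the summed FPKM of *Serpine2*, *Serping1* and *Serpinf1* that each gene held in each of the 9 libraries. Right, percent of all fragments of the library that fell on the 3 genes together, with the bars coloured by group, which was 1.98 to 2.57% in BM-MSCs, 0.994 to 1.39% in P-SSCs and 0.232 to 0.236% in graft P-SSCs.

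The promoters of *Serpine2* and *Serpinf1* are shown because these abundant serpins differed in opposite directions between P-SSCs and BM-MSCs. RefSeq promoters on GRCm38.p6 were found for 6 of the 12 genes tested, and the 250 bases before the RefSeq start are printed. They were searched on both strands with the letters TATAAA for the core promoter box of that name, the letters CCAAT for the box bound by NF-Y, the letters GGGCGG for the GC box, the letters TGANTCA for an AP-1 site and the letters TTCNNNGAA for a STAT site. Matches are in capitals. The *Serpine2* window, chr1:79858666-79858915 on the minus strand, lies inside the longer gene given in the expression table (chr1:79794197-79861180), and the *Serpinf1* window, chr11:75422624-75422873 on the minus strand, overlaps the upstream end of its gene there (chr11:75409769-75422701).
Serpine2: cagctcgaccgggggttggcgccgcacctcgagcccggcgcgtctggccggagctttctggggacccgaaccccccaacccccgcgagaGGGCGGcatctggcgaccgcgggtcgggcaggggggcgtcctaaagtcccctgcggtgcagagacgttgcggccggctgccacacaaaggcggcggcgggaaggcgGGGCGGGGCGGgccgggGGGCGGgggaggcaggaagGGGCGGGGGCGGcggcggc
Serpinf1: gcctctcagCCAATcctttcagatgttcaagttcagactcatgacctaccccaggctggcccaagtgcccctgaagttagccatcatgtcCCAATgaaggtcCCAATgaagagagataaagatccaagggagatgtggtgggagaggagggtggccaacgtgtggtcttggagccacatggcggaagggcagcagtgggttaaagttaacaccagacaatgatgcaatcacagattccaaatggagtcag
The *Serpine2* window had a GC content of 78.8% and held 6 GC boxes, among them 2 pairs that overlap or abut within the last 55 bases, and no match to the other letters. The *Serpinf1* window had a GC content of 51.6% and held 3 CCAAT matches, 241, 160 and 148 bases before the start. Over all 32851 promoters of the same length, 32.7% held GGGCGG and 33.8% held CCAAT, so each match is a common one and is given as a description.

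*Serpina3m* belongs to the mouse expansion of the antichymotrypsin gene, whose copies are alike enough that reads may be shared among them, and its values are uncertain for that reason. It had 12.2, 20.8 and 22.2 FPKM in BM-MSCs, 3.79, 0.170 and 0.349 FPKM in P-SSCs and 0.512, 0.085 and 0.537 FPKM in graft P-SSCs. BM-MSC libraries were the highest without overlap, and the P-SSC and graft P-SSC libraries overlapped. The mean of 18.4 ± 5.41 FPKM (SD, n = 3) in BM-MSCs was 12.8-fold that in P-SSCs, and 71.0-fold without P-SSC replicate 1. It was 48.7-fold that in graft P-SSCs. The gene passed the filter through BM-MSC libraries, so these folds are a description with no test. P-SSC replicate 1, the highest of its group, also decided the sign of the uncalled difference between graft P-SSCs and P-SSCs, which was -0.53 with it and 0.12 without it.

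The intracellular clade B serpins followed other patterns. *Serpinb1a* encodes an inhibitor of neutrophil elastase and cathepsin G. It was at 33.6, 18.0 and 19.3 FPKM in BM-MSCs, at 106, 64.7 and 68.8 FPKM in P-SSCs and at 196.9, 206 and 191.5 FPKM in graft P-SSCs. The groups were ordered from BM-MSCs to P-SSCs to graft P-SSCs with no overlap, the reverse of the order of *Serpine2*. Its mean was 3.38-fold higher in P-SSCs than in BM-MSCs (log2 difference 1.74, SE 0.26, adjusted p = 0.000936 from limma). The graft P-SSC mean was a further 2.48-fold higher (log2 difference 1.33, SE 0.26, adjusted p = 0.00390 from limma), which was 1.07 relative to the median of all genes.

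*Serpinb7* encodes megsin, first described in the kidney mesangium. It was at 0 in the 3 BM-MSC libraries, at 2.37, 2.04 and 4.23 FPKM in P-SSCs and at 0.499, 0.704 and 0.541 FPKM in graft P-SSCs. The 3 groups did not overlap, although the P-SSC libraries held only 53, 41 and 91 fragments. With 3 fragments per library as the floor in BM-MSCs, the P-SSC mean of 2.88 ± 1.18 FPKM (SD, n = 3) was at least 19.5-fold higher and the graft P-SSC mean of 0.581 ± 0.108 FPKM at least 3.94-fold higher. The graft P-SSC mean was 4.95-fold lower than that of P-SSCs, a description with no test, since the gene passed the filter through P-SSC libraries alone.

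*Serpinb9*, which encodes an inhibitor of granzyme B, was not called in any comparison. Its levels were 16.2, 8.34 and 11 FPKM in BM-MSCs, 16.6, 14.0 and 9.73 FPKM in P-SSCs and 10.5, 10.3 and 10.4 FPKM in graft P-SSCs. The graft P-SSC libraries lay inside the ranges of the other groups. The log2 differences were 0.19 (SE 0.30) for P-SSCs against BM-MSCs, -0.31 (SE 0.30) for graft P-SSCs against P-SSCs and -0.12 (SE 0.30) for graft P-SSCs against BM-MSCs, and limma gave adjusted p-values of 0.708, 0.456 and 0.753 in that order.

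**Figure D4:**
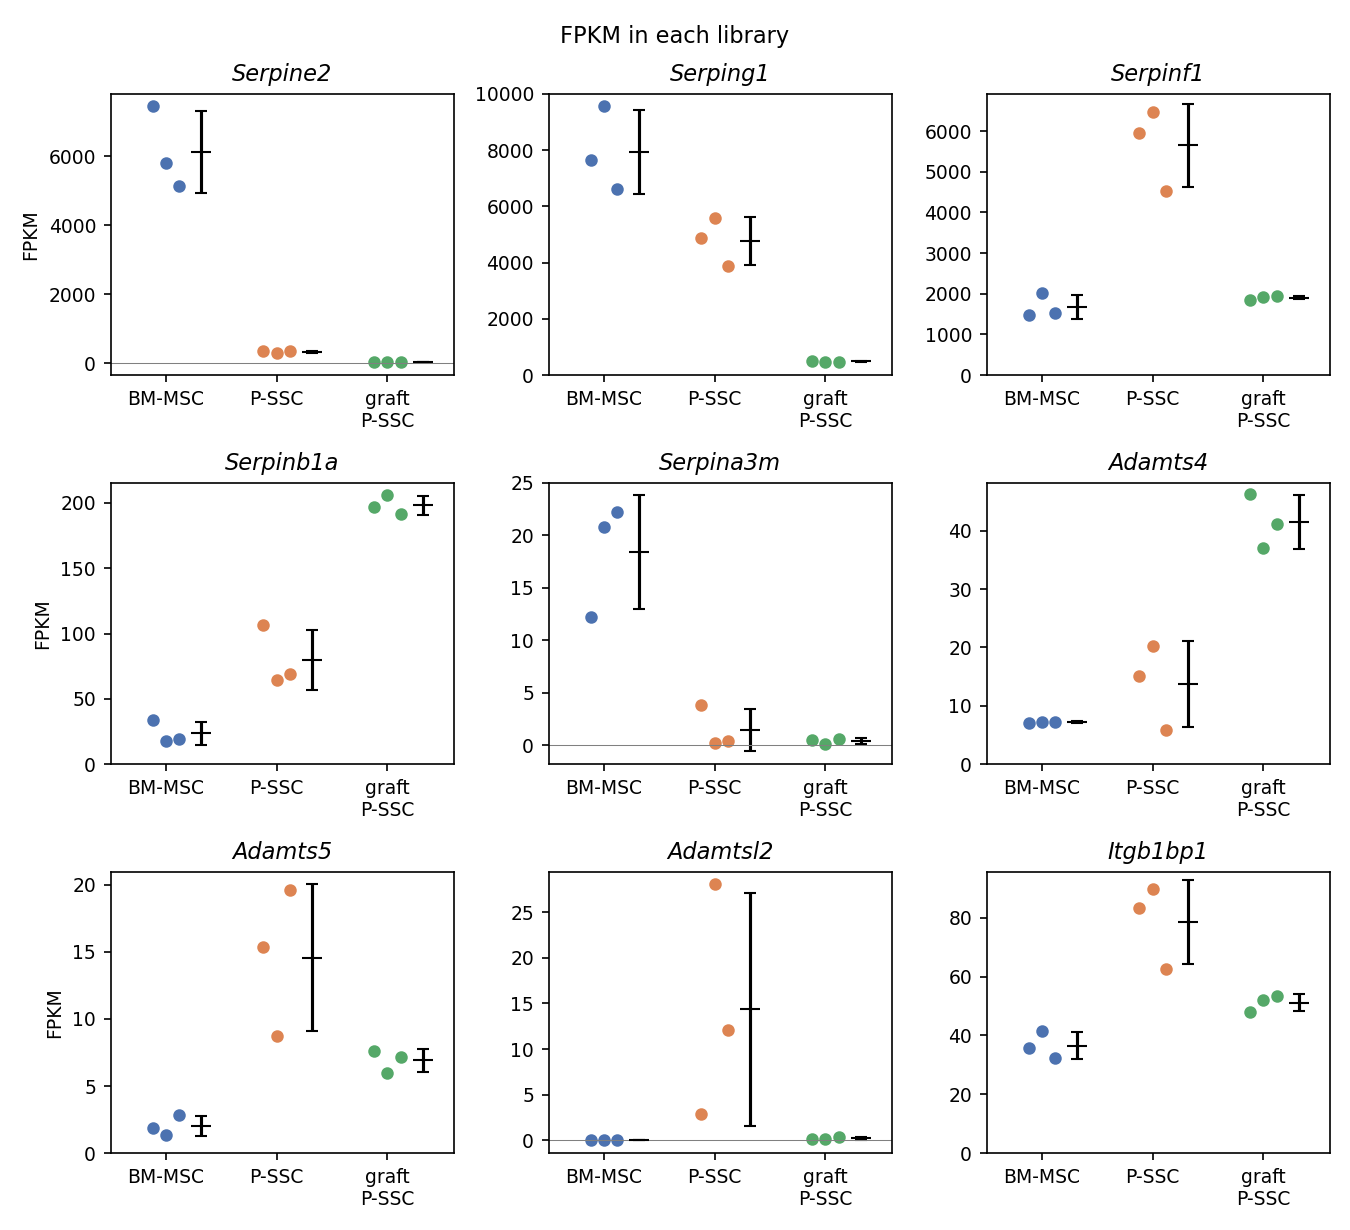
FPKM of *Serpine2*, *Serping1*, *Serpinf1*, *Serpinb1a*, *Serpina3m*, *Adamts4*, *Adamts5*, *Adamtsl2* and *Itgb1bp1* in each library, where points are libraries, horizontal ticks are group means and vertical bars are the SD of 3 libraries on linear axes of different height. *Serpinf1*, *Adamts5*, *Adamtsl2* and *Itgb1bp1* had their highest mean in P-SSCs, *Serpinb1a* and *Adamts4* in graft P-SSCs, and *Serpine2*, *Serping1* and *Serpina3m* in BM-MSCs.

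The ADAMTS genes are the proteases among the genes tested, together with *Mmp17*. *Adamts4* encodes aggrecanase 1, which cuts aggrecan and versican. It was at 7.03, 7.24 and 7.29 FPKM in BM-MSCs, at 15.1, 20.3 and 5.79 FPKM in P-SSCs and at 46.2, 37.1 and 41.2 FPKM in graft P-SSCs. Graft P-SSC libraries were above all others, and P-SSC replicate 3 was the only P-SSC library below the BM-MSC range. The graft P-SSC mean was 3.02-fold that of P-SSCs (log2 difference 1.68, SE 0.38, adjusted p = 0.00764 from limma) and 5.78-fold that of BM-MSCs (log2 difference 2.37, SE 0.38, adjusted p = 0.000930 from limma). The first of these calls was lost with quantile normalization, where the difference was 1.35 (adjusted p = 0.0636 from limma). Between P-SSCs and BM-MSCs the log2 difference was 0.70 (SE 0.38, adjusted p = 0.231 from limma) with P-SSC replicate 3 and 1.18 (adjusted p = 0.00250 from limma) without it.

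*Adamts5* encodes aggrecanase 2, the other main aggrecan-cutting enzyme of cartilage. It had 1.87, 1.36 and 2.82 FPKM in BM-MSCs, 15.3, 8.73 and 19.6 FPKM in P-SSCs and 7.58, 5.97 and 7.19 FPKM in graft P-SSCs. No libraries of different groups overlapped, with P-SSCs highest and BM-MSCs lowest. P-SSCs had a mean 7.21-fold that of BM-MSCs (log2 difference 2.33, SE 0.35, adjusted p = 0.000848 from limma), and graft P-SSCs a mean 3.42-fold that of BM-MSCs (log2 difference 1.41, SE 0.35, adjusted p = 0.0101 from limma). The lower level in graft P-SSCs than in P-SSCs, with a log2 difference of -0.91 (SE 0.35), missed the threshold at an adjusted p of 0.0705 from limma. It passed in 4 of the 18 alternatives, median-of-ratios scaling, quantile normalization, leaving out P-SSC replicate 2 and a weighted fit of fragment counts, with differences from -1.02 to -1.40.

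The balance of the aggrecanases therefore differed between libraries. The ratio of *Adamts4* to *Adamts5* FPKM was 2.58 to 5.31 in BM-MSC libraries, 0.295 to 2.32 in P-SSC libraries and 5.73 to 6.21 in graft P-SSC libraries. These ranges did not overlap, but P-SSC replicate 3, at 0.295, was well below the other P-SSC libraries at 0.984 and 2.32. Their summed FPKM was 9.21 ± 0.803 (SD, n = 3) in BM-MSCs, 28.3 ± 2.59 in P-SSCs and 48.4 ± 5.38 in graft P-SSCs.

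*Adamtsl2* encodes an ADAMTS-like protein that has no protease domain and binds fibrillin microfibrils. It was at 0 in the 3 BM-MSC libraries, at 2.88, 28.0 and 12.1 FPKM in P-SSCs and at 0.099, 0.185 and 0.414 FPKM in graft P-SSCs. All P-SSC libraries were above all others, but they differed widely among themselves, with 130, 1138 and 527 fragments. The P-SSC mean of 14.4 ± 12.7 FPKM (SD, n = 3) was at least 196-fold above the BM-MSC floor of 3 fragments per library, and at least 103-fold without P-SSC replicate 2. Graft P-SSCs had a mean 61.7-fold lower than P-SSCs, which was 32.3-fold without P-SSC replicate 2 and 101-fold without graft P-SSC replicate 3. Since the gene passed the filter through P-SSC libraries alone, these differences are a description with no test. The graft P-SSC libraries held 4, 9 and 17 fragments, at least 3.18-fold above the same floor on average and at least 1.94-fold without graft P-SSC replicate 3. The 250 bases before the RefSeq start, chr2:27079129-27079378 on the plus strand of GRCm38.p6, end directly before the first base of the gene in the expression table and are shown because P-SSC libraries were the highest here by so wide a margin, with the matches in capitals as before.
Adamtsl2: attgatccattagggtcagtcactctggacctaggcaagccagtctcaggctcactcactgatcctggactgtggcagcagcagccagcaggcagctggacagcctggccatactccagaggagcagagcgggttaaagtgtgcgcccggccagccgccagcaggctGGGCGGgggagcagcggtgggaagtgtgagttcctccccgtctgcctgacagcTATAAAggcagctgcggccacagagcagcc
The window had a GC content of 62.8% and held 1 TATAAA match 30 bases before the start and 1 GGGCGG match 83 bases before it. TATAAA was present in 12.4% of all promoters of this length.

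*Mmp17* encodes a matrix metalloproteinase that is anchored to the membrane by a lipid. It had 0.603, 0.466 and 0.496 FPKM in BM-MSCs, 0.243, 0.016 and 4.05 FPKM in P-SSCs and 1.79, 1.94 and 1.23 FPKM in graft P-SSCs. P-SSC replicate 3 was the highest of all libraries and the other P-SSC libraries were the lowest, so the P-SSC group overlapped both others, and no comparison was called. The log2 difference between P-SSCs and BM-MSCs was 0.29 (SE 0.52, adjusted p = 0.755 from limma) and -0.44 (adjusted p = 0.204) without P-SSC replicate 3. Between graft P-SSCs and P-SSCs the difference was 0.51 (SE 0.52, adjusted p = 0.491 from limma) with that library and 1.23 without it. The latter is a description with no test, since without P-SSC replicate 3 the gene reached 1 FPKM in graft P-SSC libraries alone. Graft P-SSCs against BM-MSCs gave 0.79 (SE 0.52, adjusted p = 0.237 from limma).

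*Itgb1bp1* encodes ICAP-1, a cytoplasmic protein that binds the tail of integrin beta 1 and keeps the integrin from being activated. It was at 35.6, 41.6 and 32.3 FPKM in BM-MSCs, at 83.3, 89.6 and 62.5 FPKM in P-SSCs and at 48.0, 52.0 and 53.5 FPKM in graft P-SSCs. The groups did not overlap, and P-SSCs were the highest. The P-SSC mean was 2.15-fold that of BM-MSCs (log2 difference 1.07, SE 0.19, adjusted p = 0.00195 from limma). The graft P-SSC mean was 1.53-fold lower than that of P-SSCs (log2 difference -0.59, SE 0.19, adjusted p = 0.0336 from limma), a call lost in 6 of the 18 alternatives, namely the fit without a trend and those without P-SSC replicate 1, P-SSC replicate 2 or any of the 3 graft P-SSC libraries, with adjusted p-values from 0.0636 to 0.119. Over all 18 alternatives this difference ran from -0.91 to -0.49. Graft P-SSCs and BM-MSCs differed by 0.48 (SE 0.19, adjusted p = 0.0613 from limma), which became an adjusted p of 0.0215 from limma once P-SSC replicate 3 was left out. It was also called with the filter at 5 FPKM and in the fit of only the groups compared, so in 3 of the 18 alternatives.

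The genes that act with these proteases and inhibitors were followed with lists written for the purpose. Of 13 genes of plasminogen activation and coagulation, the cascades in which the targets of *Serpine2* act, 5 were in the table and 4 were tested. In P-SSCs 3 of the 4 were higher than in BM-MSCs and 1 was lower, beside 9.80% and 14.4% of all genes, and in graft P-SSCs 1 was higher and 1 was lower than in P-SSCs, beside 22.6% and 11.5%. The lower gene in P-SSCs was *F10*, the coagulation factor X gene, which passed the filter only through BM-MSC libraries, so that its call follows from the filter. *Plau*, the urokinase gene, was at 0 in the 3 BM-MSC libraries, at 14.7, 18.1 and 7.74 FPKM in P-SSCs and at 2.81, 3.30 and 4.01 FPKM in graft P-SSCs. It had no overlap between groups, and its log2 difference between graft P-SSCs and P-SSCs was -1.67 (SE 0.34, adjusted p = 0.00444 from limma). *Anxa2*, which encodes a cell surface receptor of plasminogen, was at 723 ± 119 FPKM (SD, n = 3) in BM-MSCs, 3072 ± 673 in P-SSCs and 5480 ± 253 in graft P-SSCs. *F3*, the tissue factor gene, was called higher in P-SSCs than in BM-MSCs by 4.17 on the log2 scale (SE 0.40, adjusted p = 4.53e-05 from limma). Its level was 68.6, 67.1 and 213 FPKM in P-SSC replicates 1, 2 and 3, and the P-SSC mean was 25.0-fold that of BM-MSCs with replicate 3 and 14.6-fold without it. *Plg* itself was listed at 0 in every library.

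Among 18 other inhibitors of matrix proteases, 2 were in the table and only *Cst3*, which encodes the cathepsin inhibitor cystatin C, was tested. It had 12069 ± 1525 FPKM (SD, n = 3) in BM-MSCs, 3574 ± 565 in P-SSCs and 592 ± 25.7 in graft P-SSCs. Its log2 difference was -1.76 (SE 0.16, adjusted p = 3.26e-05 from limma) between P-SSCs and BM-MSCs and -2.58 (SE 0.16, adjusted p = 5.45e-06 from limma) between graft P-SSCs and P-SSCs, so *Cst3* was ordered as *Serpine2* was. Of 25 lysosomal partners of cathepsins, 4 were tested. *Lgmn*, the legumain gene, was called lower in P-SSCs than in BM-MSCs, with a log2 difference of -1.50 (SE 0.27, adjusted p = 0.00285 from limma), and higher in graft P-SSCs than in P-SSCs, with a log2 difference of 1.0 (SE 0.27, adjusted p = 0.0193 from limma).

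Of 38 proteoglycans and matrix glycoproteins, among which are substrates of the ADAMTS enzymes, 10 were tested. The genes of aggrecan and versican, the substrates named above, were not among the 10. In P-SSCs 7 were higher and 1 was lower than in BM-MSCs, where 9.80% and 14.4% of all genes were, and in graft P-SSCs 2 were higher and 7 were lower than in P-SSCs, where 22.6% and 11.5% were. *Ecm1*, a matrix glycoprotein, was the most abundant, at 1097 ± 305 FPKM (SD, n = 3) in BM-MSCs, 7997 ± 1636 in P-SSCs and 1328 ± 117 in graft P-SSCs, and these levels placed P-SSCs highest as for *Serpinf1*. *Prelp*, a small leucine-rich proteoglycan, was at 444 ± 29.9, 626 ± 79.2 and 246 ± 29.2 FPKM in the same groups.

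The other lists held few genes. Of 26 genes for collagen modification and secretion, *P4ha1*, a prolyl hydroxylase subunit, was the only one tested, and it was called higher in graft P-SSCs than in P-SSCs by 1.41 on the log2 scale (SE 0.24, adjusted p = 0.00166 from limma). For 14 basement membrane partners the gene tested was *Egflam*, higher in P-SSCs than in BM-MSCs by 1.10 and lower in graft P-SSCs than in P-SSCs by a difference of -1.11. Of 15 elastic fibre partners 2 were tested. *Mfap2*, a microfibril protein gene, was not called, with log2 differences of 0.39 (SE 0.29) between P-SSCs and BM-MSCs and -0.59 (SE 0.29) between graft P-SSCs and P-SSCs. *Emilin1*, which encodes an elastin interface protein, was called lower in P-SSCs than in BM-MSCs at -1.66 and higher in graft P-SSCs than in P-SSCs at 1.76. Of 26 integrin adaptors and signalling genes, 3 were tested, of which 1 was higher and 1 lower in P-SSCs than in BM-MSCs, beside 9.80% and 14.4% of all genes. The lower gene was *Fermt3*, which encodes the blood cell integrin activator kindlin 3. It was at 19.9 ± 9.79 FPKM (SD, n = 3) in BM-MSCs, 0.541 ± 0.497 in P-SSCs and 0.744 ± 0.162 in graft P-SSCs, and it passed the filter only through BM-MSC libraries, so that its call follows from the filter. *Cav1*, the caveolin 1 gene, rose from 7.0 ± 4.09 FPKM (SD, n = 3) in BM-MSCs to 206 ± 64.9 in P-SSCs and 705 ± 46.8 in graft P-SSCs.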

How the data were processed

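The authors sequenced poly(A) RNA of sorted cells, and the submitters' processing notes name CASAVA, fastp, STAR 2.6.1d, featureCounts 1.5.0-p3 and GRCm38; the annotation release and the strand setting are not given in the sources used here. The deposited values are FPKM, without further scaling between libraries by the authors, whose own count test was run on values not used here. Each of 22678 FPKM above 0 was a whole number of fragments (tolerance 1e-06) once the library total and gene length were solved for. Values were changed to log2(FPKM + 1), 1948 genes with at least 1 FPKM in at least 3 of 9 libraries were kept, and all 9 libraries were fitted in limma 3.58.1 (R 4.3.3, lmFit, contrasts, eBayes with a trend), with Benjamini-Hochberg adjustment over all genes and calls at an adjusted p under 0.05. Fold changes on this scale understate those of low genes, and fold values of means are given beside them. The procedure was tested on simulated data.

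Every member that passed is described, those called with a group mean of at least 10 FPKM in every library, and at most 3 genes of each other list by mean FPKM; values of other genes (*Ptprc*, *Csf1r*, *F10* and the library values of low members) were chosen after they were seen. The members and lists were chosen with earlier results of these data known. Alternatives changed the pseudocount (0.1), the filter (none, or 5 FPKM), the scaling, the libraries fitted, the replicate block and the trend, and left out each library; voom on recovered fragments was added after the data were seen. Replicate numbers did not pair the libraries: correlations of deviations between same-numbered libraries ran from -0.43 to 0.13. A result for 1 gene of the lysosomal list is not reported here.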

Additional observations from a re-analysis of the deposited data

How the results depend on the processing

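The number of the 12 genes called in each comparison and direction stayed within 1.5 times the value given under most settings. The exceptions were 1 gene higher in graft P-SSCs than in P-SSCs with quantile normalization, in place of 2, and 6 genes higher in graft P-SSCs than in BM-MSCs, in place of 3, when only the groups compared were fitted and again without P-SSC replicate 3, the added genes being *Itgb1bp1*, *Mmp17* and *Serpinb7*. In the fit of only the groups compared, as without that library, *Mmp17* reached 1 FPKM in graft P-SSC libraries alone and is no gained call. When each library was left out in turn, 6 to 7 genes were called higher and 2 to 3 lower in P-SSCs than in BM-MSCs, 2 to 3 higher and 5 to 6 lower in graft P-SSCs than in P-SSCs, and 3 to 6 higher and 3 lower in graft P-SSCs than in BM-MSCs. The 3 genes higher than in P-SSCs and the 6 higher than in BM-MSCs came without P-SSC replicate 3 and include *Mmp17*. With the replicate block the counts were 6 and 3, 2 and 6, and 3 and 3, and no call changed; the numbers do not pair the libraries. Of 639 recomputed differences of single genes, 604 kept direction and side of the threshold, 11 lost a call, 17 gained one and 7 changed sign, none of them called in either form. The 17 include the calls of *Mmp17* just named and its call between graft P-SSCs and P-SSCs without P-SSC replicate 3, all of which follow from the filter. The sign changes were those of *Mmp17* between P-SSCs and BM-MSCs (-0.17 with a pseudocount of 0.1, -0.85 with voom, and from -0.44 to 0.72 with each library left out, lowest without P-SSC replicate 3), *Serpinb9* (from -0.017 to 0.42 between P-SSCs and BM-MSCs with each library left out, lowest without BM-MSC replicate 2, and from -0.33 to 0.11 between graft P-SSCs and BM-MSCs, highest without BM-MSC replicate 1), *Serpina3m* between graft P-SSCs and P-SSCs (from -0.90 to 0.12, highest without P-SSC replicate 1) and *Serpinf1* between graft P-SSCs and BM-MSCs (-0.044 with median-of-ratios scaling). Apart from fits of fewer libraries or genes, the cause was not tested. Depth limits the genes under 1 FPKM, which had at most 211 fragments over all libraries.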
